A study of Mus musculus with 30 samples.

Results

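The muscle Z-disc and stretch response genes described here are 9 genes, Csrp3, Ky, Ankrd1, Ankrd2, Xirp1, Xirp2, Myot, Ldb3 and Actn2, of the 18781 genes measured. Each is represented by 1 probe set, a group of short probes along the exons of 1 gene whose signals are summarised to 1 value. Csrp3 and Ky were selected on their change with fasting in skeletal muscle (SM), so their muscle changes are given as values with no test. The other 7 are genes of the Z-disc or of the response to stretch.

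RNA came from epididymal white adipose tissue (WAT, the fat pad beside the testis), liver (LIV) and thigh muscle of male C57Bl/6 J mice aged 10-12 weeks. In each tissue, 5 mice had been without food for 24 h and 5 had free access to normal chow, with 1 array per mouse and tissue, 30 arrays in 6 groups. All mice were wild-type, and the muscles of the thigh that were dissected are not named. The deposited values are log2 levels after robust multi-array average (RMA) normalization by the authors, and 1 unit is a 2-fold difference of the same probe set. Levels of different probe sets were not compared with each other.

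The Z-disc is the border between neighbouring sarcomeres, where actin filaments from both sides are cross-linked by alpha-actinin and where titin is anchored. It also gathers proteins that sense mechanical load, some of which move to the nucleus when muscle is stretched. Actn2 (alpha-actinin 2), Ldb3 (ZASP or Cypher) and Myot (myotilin) belong to the cross-linked frame, and Xirp1 and Xirp2 are actin-binding proteins with Xin repeats. Csrp3 is the muscle LIM protein of the Z-disc, more abundant in heart and slow-twitch fibres. Ankrd1 and Ankrd2 are ankyrin repeat proteins that bind titin and are induced by stretch. Ky is a transglutaminase-like protein that binds filamin C, and mice without it develop a curved spine.

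The upstream sequences of the 4 genes with the largest muscle changes are shown because 3 of them were higher in fasted muscle and 1 lower. They are the 250 bases before the annotated start, from RefSeq on GRCm38.p6, read 5′ to 3′ in the direction of the gene: chr7:48848052-48848301 on the minus strand for Csrp3 (the farther upstream of its 2 annotated starts), chr9:102505888-102506137 on the plus strand for Ky, chr19:36119845-36120094 on the minus strand for Ankrd1, and chr19:42035777-42036026 on the plus strand for Ankrd2. Capitals mark matches to the E-box CANNTG, bound by myogenic factors, and to the M-CAT element CATTCC, bound by TEAD factors, on either strand.
Csrp3: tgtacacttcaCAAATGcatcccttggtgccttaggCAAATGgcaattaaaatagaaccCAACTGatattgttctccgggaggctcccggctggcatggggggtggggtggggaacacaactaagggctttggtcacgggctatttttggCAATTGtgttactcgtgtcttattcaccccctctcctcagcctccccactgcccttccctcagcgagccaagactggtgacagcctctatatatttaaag
Ky: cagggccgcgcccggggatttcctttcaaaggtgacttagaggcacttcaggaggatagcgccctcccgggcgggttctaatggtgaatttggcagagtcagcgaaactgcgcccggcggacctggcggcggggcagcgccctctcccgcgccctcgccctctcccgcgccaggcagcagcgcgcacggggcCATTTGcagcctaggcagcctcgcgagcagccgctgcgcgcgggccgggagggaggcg
Ankrd1: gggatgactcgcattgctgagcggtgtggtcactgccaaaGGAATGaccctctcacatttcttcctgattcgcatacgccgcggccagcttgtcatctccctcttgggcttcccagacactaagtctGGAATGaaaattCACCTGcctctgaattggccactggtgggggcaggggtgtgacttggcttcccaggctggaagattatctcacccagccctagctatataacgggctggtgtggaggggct
Ankrd2: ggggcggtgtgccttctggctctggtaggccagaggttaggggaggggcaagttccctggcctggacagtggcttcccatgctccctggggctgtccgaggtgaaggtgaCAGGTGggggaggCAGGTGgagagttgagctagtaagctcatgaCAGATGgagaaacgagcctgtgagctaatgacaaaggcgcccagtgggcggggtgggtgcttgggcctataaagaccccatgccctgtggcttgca

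Ankrd1 held 2 M-CAT matches, which begin 210 and 123 bases before the start and read GGAATG on the gene's strand. The M-CAT letters were absent from the other 3 windows shown, and 12.6% of the 32851 upstream windows of this length in the RefSeq table hold them. E-box letters were present 4 times before Csrp3, 3 times before Ankrd2, once before Ankrd1 and once before Ky, and 66.2% of all windows hold at least 1. In the windows of these 4 genes there was no match to a CArG box, the site of Srf, which 1.47% of windows hold, nor to a Mef2 site, which 2.92% hold. Upstream windows of 7 of the 9 genes were searched, and none was searched for Xirp1 or Myot. Of the other 3 searched, Ldb3 had a CArG match 35 bases before 1 of its 2 annotated starts and Xirp2 a Mef2 match at 74 bases. These are matches of letters in a fixed window, and binding was not measured.

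In the main tests 28 arrays were used, without fasted SM 5 and fed LIV 4, the muscle and liver arrays with the lowest correlation with their own groups. The text of the study names fasted SM 1 in place of fasted SM 5, and with that set Csrp3 was 2.15 higher in fasted SM, Ky lower by 2.70 on the log2 scale, Ankrd2 1.27 higher and still called, and Ankrd1 (0.37) not called. Fasted SM 5 had a mean r of 0.98 with its group against 0.991 to 0.992 for the other fasted muscles, and a mean level of 7 measured lymphocyte markers of 8.46 where all other muscle arrays lay between 4.08 and 4.36. The muscle label held: the mean of 11 fast-fibre markers was 12.20 or more on every muscle array and 4.59 or less on every WAT and LIV array. Levels on fasted SM 5 are given beside those of the other arrays. A change in a whole muscle sample cannot tell fewer or more fibres of a type apart from less or more RNA per fibre.

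Of the 7 genes not selected on their muscle change, 2 were called, Ankrd1 and Ankrd2, both higher in fasted SM, where called means an adjusted p under 0.05 over all 28815 probe sets and a change of at least 1.3-fold. Of all probe sets, 11.9% were called in SM and 6.35% were called higher. Ankrd2 was higher on every fasted array than on any fed array, whereas the mean of Ankrd1 rested largely on fasted SM 1 (1.29, or 0.48 without it), and Ankrd1 was not called with all 30 arrays, with fasted SM 1 left out in place of fasted SM 5, or with muscle fitted alone. The median change of the 7 genes was 0.28 on the log2 scale, against -0.004 over all 18781 genes. The frame genes Myot, Ldb3 and Actn2 and the Xin genes Xirp1 and Xirp2 were not called.

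**Figure D1:**
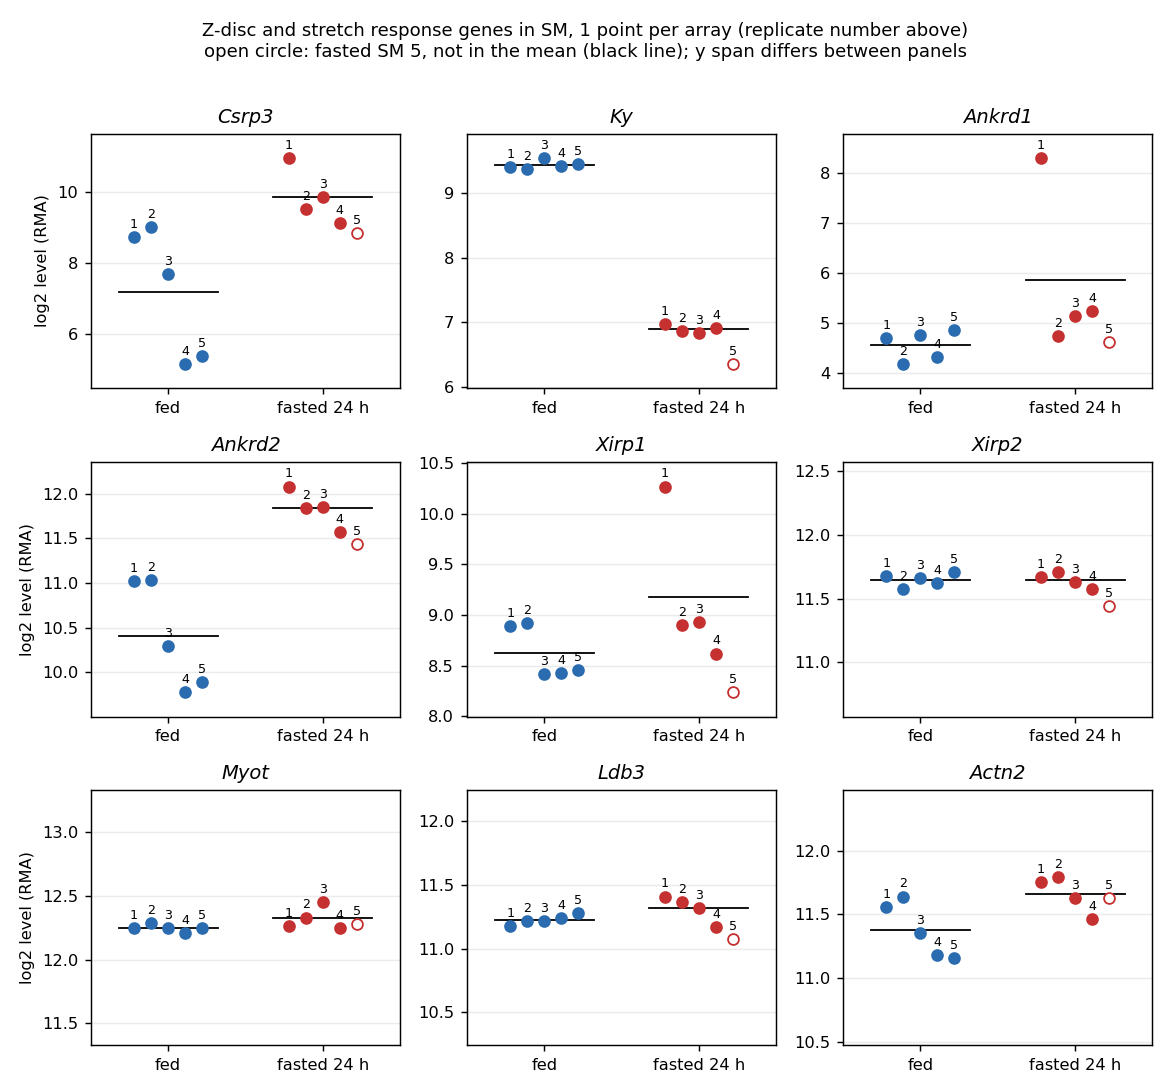
Log2 level (y axis) of the 9 genes on each muscle array, fed in blue and fasted for 24 h in red, with the replicate number above each point, the mean of the arrays used as a black line and fasted SM 5 as an open circle. The fed and fasted arrays of Ky and Ankrd2 are apart with all 10 arrays, Ankrd1 is at 8.30 on fasted SM 1 and at 5.24 or lower on every other muscle array, and the levels of Xirp2, Myot and Ldb3 each span 0.24 or less over the arrays used.

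Csrp3, the LIM protein, spanned a wide range in fed muscle. Its log2 level on fed SM 1 to 5 was 8.73, 9.03, 7.70, 5.17 and 5.38, and on fasted SM 1 to 4 it was 10.96, 9.54, 9.87 and 9.13. Every one of these 4 fasted arrays was above every fed array, but fasted SM 5, at 8.85, lay below fed SM 2. The fasted mean was 2.68 ± 0.52 (SE) higher, a 6.395-fold difference and the fourth largest rise of the 18781 genes. This SE pools the spread of all 6 groups, and with muscle fitted alone it was 0.79. Its fed SD was 1.83 (n = 5) and its fasted SD 0.78 (n = 4). With all 30 arrays the difference was 2.47, and with single arrays left out it ran from 2.17 (without fed SM 4) to 3.14 (without fed SM 2).

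Ky moved the other way with hardly any spread. Its levels on fed SM 1 to 5 were 9.40, 9.37, 9.54, 9.42 and 9.45, and on fasted SM 1 to 4 they were 6.98, 6.86, 6.83 and 6.91. On fasted SM 5 it was lowest, at 6.36, so the groups were apart with all 10 arrays. The fasted mean was lower by 2.54 on the log2 scale (SE 0.07), a 5.825-fold difference and the second largest fall of all genes. The SD was 0.07 in each group, whereas that of Csrp3 was 0.78 or more.

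Ankrd2, which binds titin and moves between sarcomere and nucleus, was the most uniform rise among the 7 genes tested. Its levels were 11.02, 11.03, 10.29, 9.78 and 9.89 on fed SM 1 to 5 and 12.08, 11.84, 11.85 and 11.57 on fasted SM 1 to 4. Fasted SM 5, at 11.44, was also above every fed array. It was 1.43 ± 0.20 (SE) higher in fasted SM, or 2.698-fold, with an adjusted p of 4.24e-06 in limma. Of the 7 genes, it was the 1 with no overlap between fasted and fed arrays, as was the case for 19.4% of all probe sets in SM and for 15.3% with all 10 arrays. It was called under all 15 alternatives and with each of the 28 arrays left out in turn, with a change between 1.27 and 1.93.

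Ankrd1, its stretch-induced relative, was far higher on 1 array than on any other. On fed SM 1 to 5 it was at 4.71, 4.19, 4.77, 4.32 and 4.87, on fasted SM 1 at 8.30, and on fasted SM 2 to 4 at 4.75, 5.15 and 5.24. Fasted SM 5 was at 4.63, among the fed arrays, and so was fasted SM 2. The change was 1.29 ± 0.39 (SE) with an adjusted p of 0.01667 in limma. Without fasted SM 1 it was 0.48 and still called (adjusted p = 0.01833), with fasted SM 5 in its place it was 0.37 (adjusted p = 0.06095), and with all 30 arrays it was 1.04 (adjusted p = 0.05366). Fitted on muscle arrays alone, its adjusted p was 0.1606. The fed mean of Ankrd1 in SM, 4.57, lay under 5, the limit used here for dim probe sets. The differences of 0.48 and 0.37 were therefore between low levels.

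Xirp1, an actin-binding Xin protein that is known from sites of fibre damage, had its highest level on the same array. It was at 8.89, 8.92, 8.42, 8.43 and 8.46 on fed SM 1 to 5 and at 10.27, 8.90, 8.93 and 8.62 on fasted SM 1 to 4, with 8.24 on fasted SM 5. Apart from fasted SM 1, its fasted levels lay close to the fed range. The change of 0.56 ± 0.22 (SE) did not pass the test (adjusted p = 0.07318), without fasted SM 1 it was 0.19, and with fasted SM 5 in place of fasted SM 1 it was 0.05 (adjusted p = 0.895). Without fasted SM 4 it was 0.74 and passed (adjusted p = 0.02123), and with dim probe sets removed the same 0.56 passed (adjusted p = 0.04974). Its close relative Xirp2 was between 11.58 and 11.71 in both groups, a change of 0.00 ± 0.07 (SE; adjusted p = 0.9874).

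The transcripts of the frame genes differed by 0.28 or less on the log2 scale. Actn2, alpha-actinin 2, was at 11.56, 11.64, 11.35, 11.18 and 11.16 on fed SM 1 to 5 and at 11.75, 11.79, 11.63 and 11.46 on fasted SM 1 to 4, with 11.63 on fasted SM 5. Its change of 0.28 ± 0.09 (SE) passed the test (adjusted p = 0.01795 in limma) but, at 1.214-fold, not the minimum fold, and the groups overlapped. Fitted on muscle arrays alone, the same 0.28 had an SE of 0.11 and did not pass (adjusted p = 0.113 in limma). With single arrays left out of the main fit, its adjusted p ran from 0.002891 to 0.07048. Myot lay between 12.21 and 12.29 in fed SM and between 12.25 and 12.45 in fasted SM, a change of 0.07 ± 0.09 (SE; adjusted p = 0.6396). Ldb3, the PDZ and LIM protein that binds alpha-actinin, lay between 11.18 and 11.28 in fed SM and between 11.17 and 11.41 in fasted SM, a change of 0.09 ± 0.11 (SE; adjusted p = 0.6474). For both, a p above the threshold does not show that the level stayed the same.

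Slow-fibre content differed widely between the dissected muscles. The mean of 7 slow-fibre markers (Myh7, Myl2, Myl3, Tnnt1, Tnni1, Tnnc1 and Atp2a2) was 10.12, 10.21, 8.42, 5.39 and 7.14 on fed SM 1 to 5 and 8.66, 9.86, 9.42 and 8.34 on fasted SM 1 to 4, with 10.13 on fasted SM 5. The fasted mean was 0.81 higher, with an exact two-sided permutation p of 0.54 (0.707 after Benjamini-Hochberg over 8 marker lists; 5 fed and 4 fasted arrays), and 0 of the 7 markers were called. Fed SM 4 and 5, the arrays poorest in slow-fibre RNA, were also those lowest in Csrp3 and Ankrd2. Among the 5 fed arrays, Csrp3 followed the order of the slow-fibre mean exactly, whereas among the 4 fasted arrays the one highest in Csrp3, fasted SM 1, was the second lowest in slow-fibre markers.

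**Figure D2:**
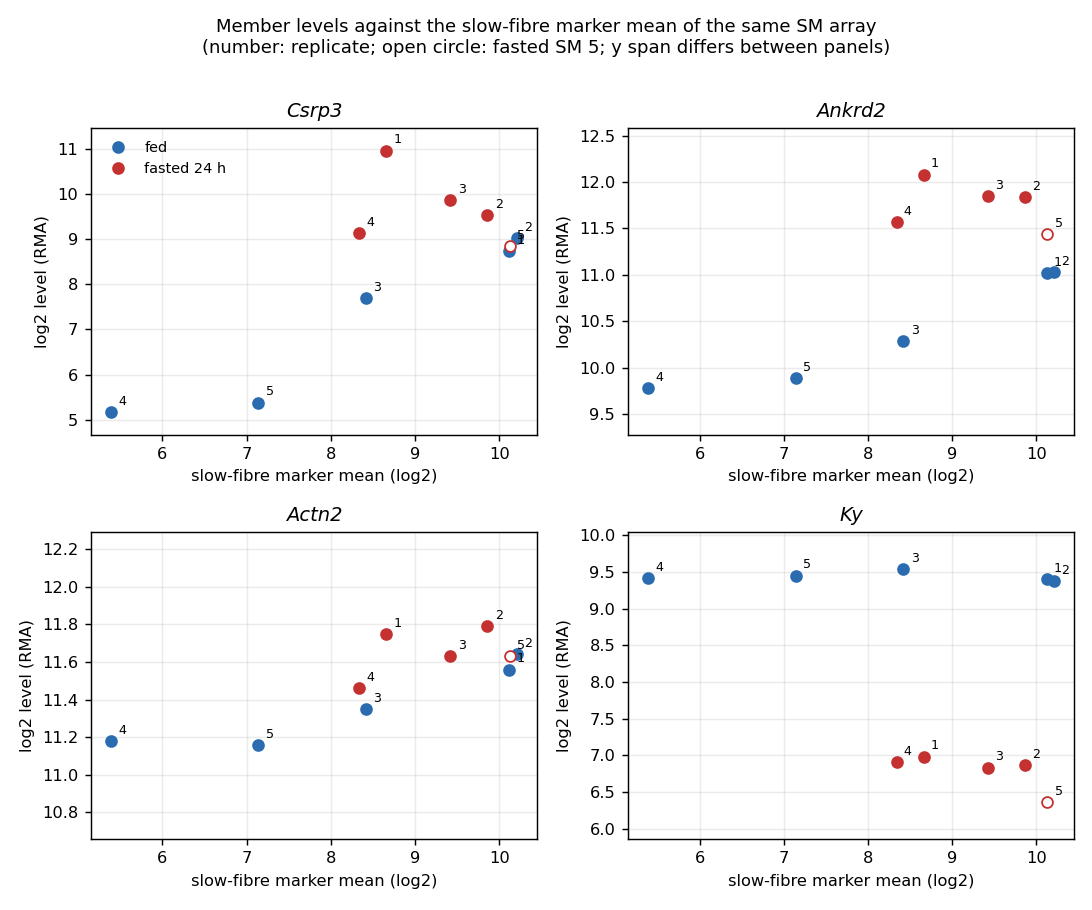
Log2 level of Csrp3, Ankrd2, Actn2 and Ky (y axis) against the mean log2 level of 7 slow-fibre markers (x axis) on each muscle array, fed in blue, fasted in red, fasted SM 5 as an open circle. Csrp3, Ankrd2 and Actn2 are higher on fed arrays with more slow-fibre RNA, and Ky is flat along the x axis with the fed arrays at 9.37 or more and the fasted arrays at 6.98 or less.

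A slope on the slow-fibre mean was fitted together with diet over the 9 muscle arrays used, a quantity that the selection of Csrp3 and Ky did not use. Csrp3 rose by 0.78 ± 0.15 (SE) for each unit of the slow-fibre mean, with an unadjusted p of 0.0003811 and an adjusted p of 0.2615 in limma. Ankrd2 rose by 0.26 ± 0.04 (SE; unadjusted p = 0.0001094, adjusted p = 0.12) and Actn2 by 0.10 ± 0.03 (SE; unadjusted p = 0.002397, adjusted p = 0.4697). The slope of Ky was -0.01 ± 0.02 (SE). None of the 9 genes passed after adjustment in limma, as 0.0416% of all probe sets did. At an unadjusted p under 0.05 the 3 genes just named passed, 3 of 9, against 5.87% of probe sets. Without fasted SM 1, Csrp3 (0.82, adjusted p = 0.02283) and Ankrd2 (0.28, adjusted p = 0.02439) passed, with 0.059% of all probe sets.

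With the slow-fibre mean held, the fasted minus fed difference was 2.04 ± 0.45 (SE) for Csrp3 and -2.53 ± 0.06 (SE) for Ky. Ankrd2 was the 1 of the 7 other genes called in that fit, at 1.22 ± 0.13 (SE; adjusted p = 0.0001511 in limma), against 11.5% of all probe sets. Ankrd1 was at 1.37 (adjusted p = 0.1722) and Actn2 at 0.20 (adjusted p = 0.1073). Single arrays with near equal slow-fibre means can be set side by side. Fed SM 3 and fasted SM 4 had slow-fibre means of 8.42 and 8.34, and Csrp3 was at 7.70 and 9.13, Ankrd2 at 10.29 and 11.57, and Ky at 9.54 and 6.91. Fed SM 1 and fasted SM 5, however, had slow-fibre means of 10.12 and 10.13 and nearly the same Csrp3, 8.73 and 8.85, beside Ankrd2 at 11.02 and 11.44 and Ky at 9.40 and 6.36. Fasted SM 5 is the array left out of the main tests. Among the arrays used, fasted SM 2 had a slow-fibre mean of 9.86 and Csrp3 at 9.54, against 10.12 and 8.73 on fed SM 1. Fasted SM 1 had a slow-fibre mean of 8.66 and Csrp3 at 10.96, against 8.42 and 7.70 on fed SM 3.

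Markers of other cell types differed in part between fed and fasted SM. The mean of 8 measured adipocyte markers was between 7.38 and 9.38 on fed SM and between 7.35 and 8.23 on fasted SM (exact permutation p = 0.143, 0.28 after adjustment over 8 lists), and 3 of the 8 were called lower. Those of 6 fibroblast markers were between 8.67 and 9.06 and between 8.23 and 8.65 (exact permutation p = 0.0159, the smallest that 5 against 4 arrays can give, and 0.0636 after adjustment), with 4 of 6 called lower. The fibroblast mean was lower in fasted WAT as well, between 9.19 and 9.48 against 9.49 to 9.64 in fed WAT. In LIV the groups overlapped, between 6.85 and 7.16 in fasted and between 6.93 and 7.45 in fed mice. The mean of 6 markers of regenerating or denervated fibres, among them Myog, Myh3 and Myh8, was between 5.29 and 5.66 in fed and between 5.05 and 5.21 in fasted SM (exact permutation p = 0.0159, 0.0636 after adjustment). Of these 6, Myod1 was called lower and the other 5 were not called, and the median change of the 6 was -0.09. The slow-fibre, fast-fibre, lymphocyte and hepatocyte markers had 0 called genes. The adipocyte mean was between 11.33 and 11.83 in fasted WAT against 11.83 to 12.07 in fed WAT. Whether it follows fat content alone was not tested. With the adipocyte mean held, Ankrd2 was at 1.83 (adjusted p = 0.000106 in limma), Csrp3 at 4.02 and Ky at -2.53, and Actn2 was called at 0.43 (adjusted p = 0.01335). The part of the fibroblast and regenerating-fibre markers in these results was not tested.

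The members were then set against WAT and LIV, whose arrays did not enter the selection. In fed mice, 7 of the 9 genes were at least 4.55 higher in SM than in either other tissue on the log2 scale, with no overlap of arrays, from Xirp1 (4.55 above WAT) to Myot (8.71 above LIV). Ankrd1 was only 1.03 above WAT and 0.38 above LIV, where its fed arrays overlapped those of SM. Csrp3 was 3.19 above WAT but had the same mean in fed LIV (7.21, SD 0.19, n = 4) as in fed SM (7.20, SD 1.83, n = 5). The liver signal of the Csrp3 probe set, 6.93 or more on each of the 9 arrays used, was above that of fed SM 4 and 5. Where the probes of this set lie was not analysed here, so what it measures in LIV is not known. Liver arrays had fast-fibre marker means of 4.17 or less and slow-fibre means of 5.16 or less.

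In WAT, 0 of the 9 genes were called in limma, against 13.2% of probe sets, with changes from -0.17 (Ankrd2) to 0.22 (Csrp3). In LIV, 0 of 9 were called, against 6.55%, with changes from -0.19 (Ankrd1) to 0.45 (Csrp3). Csrp3 in LIV aside, the fed means of the members were low in both tissues, at 5.34 (Ldb3 in WAT) or less. The mean of 2 markers of brain, which was not sampled, was 3.82 or less on fed WAT and LIV arrays. At such levels a fall can hardly be seen, although a rise could be. The counts of 0 do not show that there was no response. The liver difference of the Csrp3 probe set took its error from the spread over all 6 groups, most of which lay in fed SM: 0.45 with an SE of 0.52 (adjusted p = 0.6581). Its fed LIV arrays were at 7.26, 7.35, 6.93 and 7.32 and its fasted LIV arrays at 7.73, 7.49, 7.51, 7.79 and 7.81. These 9 arrays did not overlap, as 14.6% of probe sets do in LIV, although fed LIV 4, left out, was at 7.50. Fitted on liver alone, the same 0.45 had an SE of 0.10 and was called (adjusted p = 0.01695), as 6.15% of probe sets were. In WAT fitted alone, Csrp3 rose by 0.22 (adjusted p = 0.03039), under the minimum fold.

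**Figure D3:**
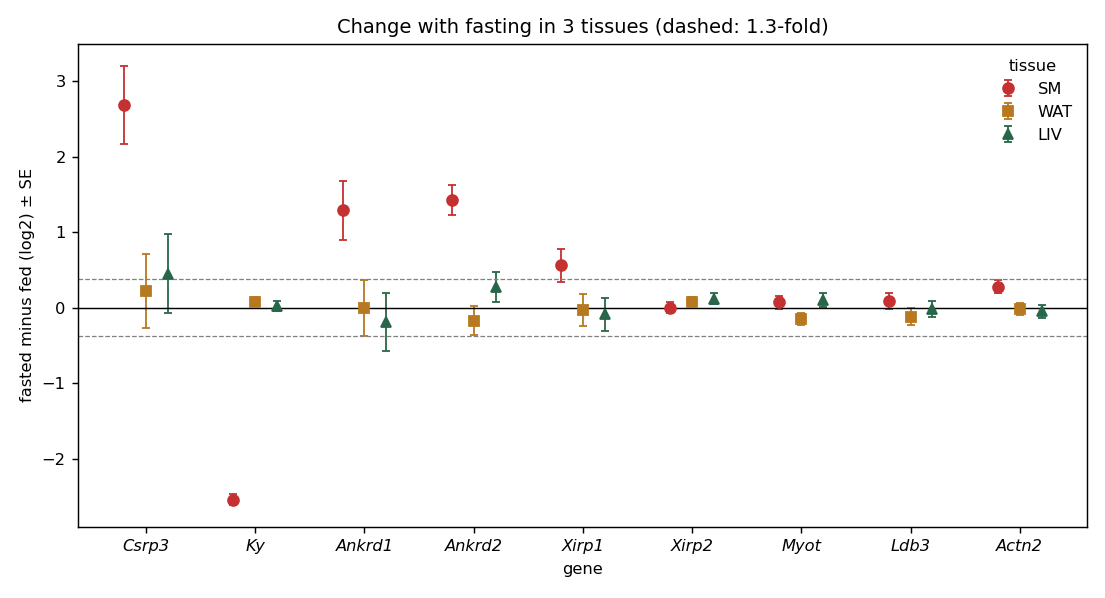
Fasted minus fed difference on the log2 scale with its SE (y axis) for the 9 genes (x axis) in SM (red circles), WAT (brown squares) and LIV (green triangles), with the 1.3-fold limits dashed. In WAT every gene lies between -0.17 and 0.22 and in LIV between -0.19 and 0.45, whereas SM runs from -2.54 (Ky) to 2.68 (Csrp3).

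The difference of changes between tissues was tested for the 7 genes. Ankrd2 was called in both tests, with a change in SM that was 1.61 ± 0.28 (SE) above that in WAT (adjusted p = 0.000121 in limma) and 1.17 ± 0.28 (SE) above that in LIV (adjusted p = 0.004526). It was the 1 gene of 7 called in each, where 12.8% of probe sets were called in SM against WAT and 12.8% in SM against LIV. The mean of Ankrd2 was 4.64 in fed and 4.47 in fasted WAT, and 5 and 5.26 in LIV, against 10.4 and 11.83 in SM. At such low levels a fall in WAT or LIV can hardly be seen. The changes of Ankrd2 there were -0.17 and 0.27, so both differences largely restate its change in SM. For Ankrd1 the change in SM was 1.29 above WAT (adjusted p = 0.1081) and 1.48 above LIV (adjusted p = 0.06877). For Actn2 it was 0.30 above WAT (adjusted p = 0.08279) and 0.33 above LIV (adjusted p = 0.06682). Both tests share the muscle arrays.

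Around the members, 48 of 52 other genes of the Z-disc, of load sensing and turnover, and of the M-band were measured. In SM, 12 were called higher and 5 lower, 35.4% of the 48, with a median change of 0.088, against 13.6% called and a median of -0.004 over all genes. These shares are descriptions, since the lists hold genes that are highly expressed in muscle.

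Of 24 other Z-disc genes, 4 were called higher and 3 lower, with a median of -0.032. The largest rises were Igfn1, an immunoglobulin-repeat protein that binds Ky (1.02 ± 0.27 SE; adjusted p = 0.005418 in limma), Flnc, the filamin that Ky binds (0.68 ± 0.09 SE; adjusted p = 2.723e-06), and Bag3, the co-chaperone that clears damaged filamin (0.51 ± 0.11 SE; adjusted p = 0.0005809). Igfn1 rose from a fed mean of 4.65 (SD 0.75), under the limit of 5 for dim probe sets, to 5.67 (SD 0.68). The falls were Synpo2l, an actin-associated Z-disc protein (-1.02 ± 0.10 SE; adjusted p = 8.888e-09), Palld, palladin (-0.64 ± 0.10 SE), and Myoz3, the calsarcin of fast fibres (-0.43 ± 0.11 SE). Ttn (-0.05), Neb (-0.02), Des (-0.06) and Actn3 (-0.05), the fast-fibre alpha-actinin, did not pass. Mypn (0.30, adjusted p = 0.001486 in limma), Tcap (0.33, adjusted p = 0.02073) and Capzb (-0.15, adjusted p = 0.02252) passed the test but not the minimum fold. All the uncalled genes named here were chosen after their values were seen.

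Of 20 measured genes of load sensing and turnover, 8 were called higher and 2 lower, with a median of 0.128. Trim63, the ubiquitin ligase MuRF1 of the sarcomere, rose by 1.90 ± 0.11 (SE), from 10.68 (SD 0.20, n = 5) to 12.58 (SD 0.11, n = 4), with an adjusted p of 7.933e-13 in limma. Ccn1, a secreted protein induced by Yap1 and Srf, rose by 1.39 ± 0.10 (SE; adjusted p = 8.899e-11), and Hspb7, a small heat shock protein of muscle, by 1.07 ± 0.39 (SE; adjusted p = 0.04988). Mrtfa, the actin-regulated coactivator of Srf, fell by 1.75 on the log2 scale, from 7.74 (SD 0.16) to 5.99 (SD 0.15; adjusted p = 6.313e-14), and Trim55, the relative MuRF2 of Trim63, fell by 0.52. Srf itself (-0.01), Yap1 (0.09) and Wwtr1 (0.02), chosen after their values were seen, did not pass. Without fasted SM 1, Hspb7 was at 0.97 (adjusted p = 0.1183), Ccn2 at 0.62 against 0.74 (adjusted p = 0.1146) and Lmcd1 at 0.37 against 0.69 (adjusted p = 0.1763), and none of the 3 was called. Ccn2 and Lmcd1 were named for this loss of their calls. Of 4 measured M-band genes 0 were called in limma, Myom3, a myomesin, having the widest spread (0.80, adjusted p = 0.161).

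**Figure D4:**
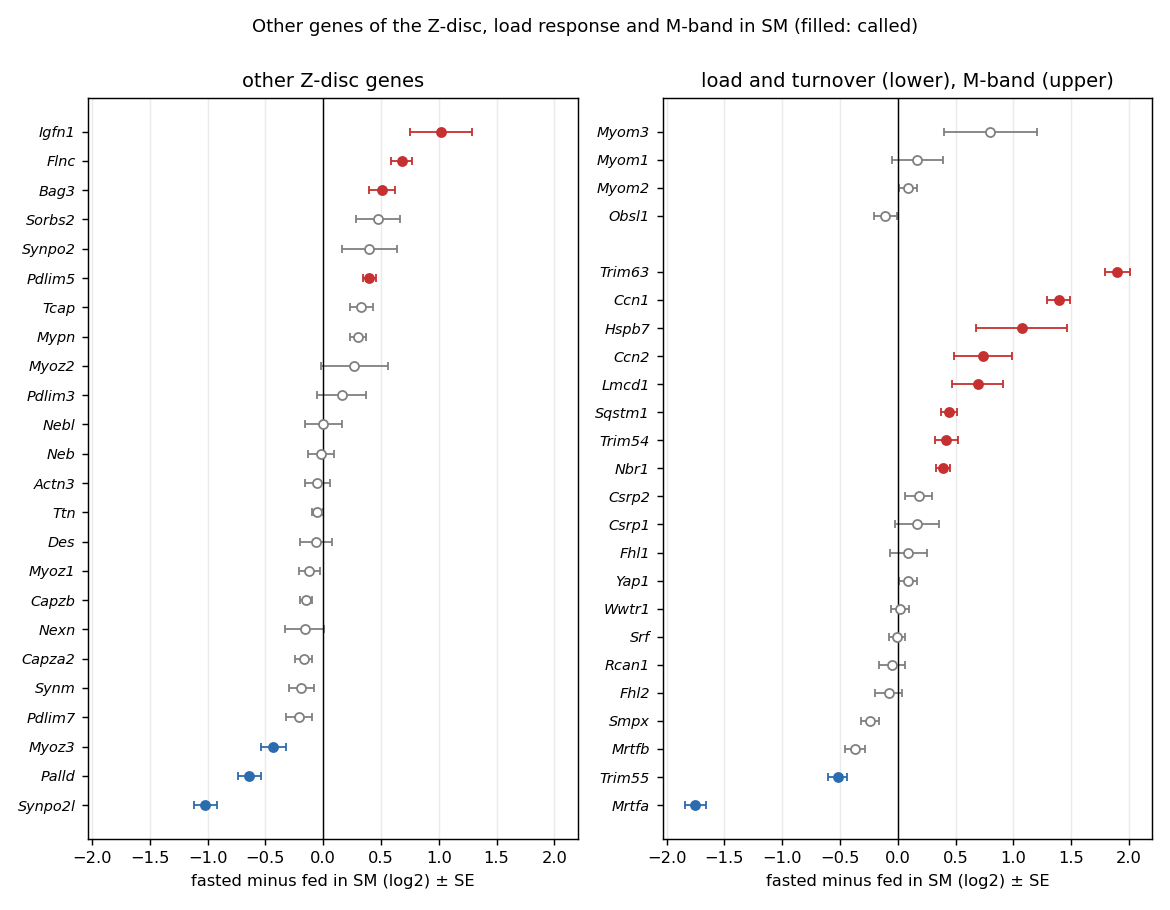
Fasted minus fed difference in SM on the log2 scale with its SE (x axis) for 24 other Z-disc genes (left), 20 genes of load sensing and turnover and 4 of the M-band (right), with called rises in red, called falls in blue and genes not called as open grey circles. Trim63 lies farthest right at 1.90 and Mrtfa farthest left at -1.75.

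Other genes with a like pattern over the 9 muscle arrays used were ranked by Pearson r, as a description over points that share the fed and fasted groups. For Csrp3 they were Hspb7 (r = 0.973), Angptl4, a secreted inhibitor of lipoprotein lipase (0.971), and Tet2 (0.958). For Ankrd2 they were Angptl4 (0.981), Lmod2, an actin filament nucleator of the sarcomere (0.974), and Hspb7 (0.973), so Hspb7 and Angptl4 stood in both. Hspb7 was between 9.35 and 10.79 on fed and between 10.79 and 11.40 on fasted arrays. For Ky they were Fam78a (0.998), Tfrc, the transferrin receptor (0.996), and 6430571L13Rik (0.996), genes with 2 tight levels. Tfrc was between 9.27 and 9.59 on fed and between 7.34 and 7.65 on fasted arrays. For Ankrd1 they were Frmd3 (0.978), Adamtsl2 (0.975) and Ntn1 (0.962), Frmd3 spanned 3.12 to 4.01 on the fasted arrays and 3.13 to 3.22 on the fed arrays.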

How the data were processed

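Transcript levels came from Mouse Gene 1.1 ST arrays (Affymetrix) of WAT, LIV and SM of 5 fed and 5 fasted mice, 30 arrays in all. The authors made the deposited log2 values by RMA in Partek, per the labels and the methods of the study (versions are not given in the sources used here), with background correction, quantile normalization and summary over probes, which would hide a shift in overall mRNA content. Precision is limited by the small number of arrays, 4 or 5 in each group.

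Of 28815 probe sets, 21153 name 1 gene symbol in the platform annotation, 1867 several, and 5795 are not listed. A gene takes its probe set of highest mean, and each member has 1 probe set. A linear model of the 6 group means was run on the 28 arrays, using limma 3.58.1 (R 4.3.3) on the full table; p-values were adjusted by Benjamini-Hochberg over all probe sets and the study's thresholds of 5% and 1.3-fold. SEs are from this fit. The slow-fibre fits took diet and the mean of 7 slow-fibre markers over 9 muscle arrays. Exact permutation tests were two-sided and run in scipy 1.17.1 under Python 3.11.15, with figures from matplotlib 3.10.9. The procedure was tested on simulated data. Members, gene lists and marker lists were chosen with earlier results of these data known.

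Named were all members, in each other list up to 3 called genes with the largest rise and 3 with the largest fall, and for Csrp3, Ky and the called members the 3 genes of highest Pearson r. Alternatives were all 30 arrays, fasted SM 1 left out in place of fasted SM 5, array weights, no moderation of variances, each tissue alone, a replicate block, mouse identity as a random block, removal of dim probe sets (mean under 5 in every group), cyclic loess, no minimum fold, 1.5-fold, a false discovery rate of 1%, adipocyte or fast-fibre means as covariates, averaged probe sets, other slow-fibre scores, and each array left out in turn. The random block took arrays of the same diet and replicate number as 1 mouse across tissues, which the labels do not state. The main fit took all arrays as independent, although the tissues came from the same mice. Upstream sequences were read from RefSeq tables on GRCm38.p6.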

Additional observations from a re-analysis of the deposited data

Results flagged for a closer look

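Of 54 sets of levels (9 genes in 6 groups of 4 or 5 arrays), 3 had 1 array far from the rest by Dixon's ratio of gap to range, and chance alone gives about 2.7. Ankrd1 was at 8.30 on fasted SM 1 (ratio 0.862, critical value 0.829), the value on which most of its change in SM rests. Csrp3 was at 4.22 on fed WAT 1 (ratio 0.742, critical value 0.71) and Xirp1 at 4.61 on fasted WAT 5 (ratio 0.744), both in a tissue where no change of theirs was called.

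The change of Ankrd2 in SM was 1.61 above that in WAT and 1.17 above that in LIV, both called in limma. Its group means in WAT and LIV were 5.26 or less, and its changes there were -0.17 and 0.27. These differences largely restate its change in SM.

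On fasted SM 5, which the comparisons did not use, the mean of the lymphocyte markers was 8.46, against 4.08 to 4.36 on every other muscle array. Among the members, this array had the lowest Ky (6.36), Xirp1 (8.24), Xirp2 (11.44) and Ldb3 (11.08) of all muscle arrays, and its part in the levels of these genes was not tested.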

How the results depend on the processing

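Apart from Xirp2, whose change of 0.00 ran from -0.06 to 0.03, no member's change in SM, nor that of Csrp3 in LIV, turned its direction under the alternatives tried. Members called in SM, 2 in the report, were 1 (Ankrd2) with all 30 arrays, with fasted SM 1 left out in place of fasted SM 5, with each tissue fitted on its own and at a false discovery rate of 1%; Ankrd1 was the gene lost each time. They were 3 with dim probe sets removed (Xirp1 gained, adjusted p = 0.04974) and 3 with no minimum fold (Actn2 gained). With the adipocyte or fast-fibre mean held, Ankrd1 was not called (adjusted p = 0.1358 and 0.4613) but Actn2 was. Members called in LIV, 0 in the report, were 1 (Csrp3) with each tissue fitted on its own, a fit in which differences between tissues cannot be tested. Members whose change differed between SM and LIV, 1 in the report, were 2 with dim probe sets removed (with Ankrd1) and with cyclic loess (with Actn2). Other genes of the Z-disc, load and M-band lists called in SM, 17 in the report, were 10 at a minimum of 1.5-fold, 12 with all 30 arrays and 14 with fasted SM 1 left out in place of fasted SM 5. With each array left out in turn, the count of members called was 2 to 3 for SM, 0 to 0 for WAT and 0 to 0 for LIV, members whose change differed were 1 to 2 for SM against WAT and 1 to 3 for SM against LIV, other genes called were 14 to 19, and in the slow-fibre fits members with a slope were 0 to 2 (2 without fasted SM 1) and members called 1 to 1. Called probe sets in SM, WAT and LIV were 6516, 7667 and 3813 with no minimum fold and 1428, 1643 and 825 at 1.5-fold, from 3420, 3792 and 1887. The replicate numbers of fed and fasted mice name different animals and did not pair them (correlation of deviations in SM from -0.004 to 0.163, all tissues from -0.252 to 0.163); with a replicate block within tissue, 2 members were called in SM, 0 in WAT and 0 in LIV, and 3311 probe sets in SM, and no member's call changed. The cause of these differences was not tested.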

Other observations

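The array that carried the rise of Ankrd1 stood out in other genes, which were chosen after their values were seen. On fasted SM 1, Ankrd1 was 3.06 above the next muscle array on the log2 scale, the largest such gap of all genes, and Xirp1, with a gap of 1.34, had the sixth largest. Between them lay Cnn1 (gap 2.09), a calponin of smooth muscle, Atf3 (1.56), a stress-induced transcription factor, Drp2 (1.36) and Th (1.35). Csrp3 was also highest on fasted SM 1, at 10.96 against 9.87 on fasted SM 3, and had rank 16 by gap. Without fasted SM 1 its difference between fasted and fed SM was 2.32. Further genes highest on this array were the smooth muscle genes Tagln (1.28) and Myh11 (1.20), the early response gene Fos (1.22) and Tnfrsf12a (1.14), the receptor of Tweak. In all, 22 genes were at least 1 above every other muscle array on fasted SM 1, compared with 23 on fed SM 3, 18 on fasted SM 3, 451 on fasted SM 5 and 3 or fewer on each of the others.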
